A study of Mus musculus with 18 samples.

Results

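The Armcx and Gprasp genes are an armadillo-repeat gene family of the X chromosome, and the members described here are Armcx1, Armcx2, Armcx3, Armcx4, Armcx5, Armcx6, Gprasp1, Gprasp2 and Bhlhb9. They were picked out by gene symbol through the GRCm38 mouse annotation, and the family was chosen with earlier results of these data known. The members make up 9 of the 46078 gene identifiers in each deposited table. RNA was sequenced from female mice in 18 libraries that form 8 groups. By the sample labels the mutants carry a homozygous deletion of Xist, the long RNA that coats an X chromosome and starts its inactivation. The same labels give the controls a heterozygous deletion of Xist. By them, every animal had at least a heterozygous deletion and no group had an intact pair of Xist alleles. The columns of the deposited values call the controls WT instead, and the labels were followed. The groups were mutant and control primary tail-tip fibroblasts (3 libraries each), and mutant and control spleen, liver and brain taken at postnatal day 1 (2 libraries each). The series' design text names heart where the sample labels name brain, and the labels were followed. The sources used here do not state the age of the fibroblast donors, the strain or how the deletion was made. The design text calls the replicates biological, but no source says whether organs with the same number came from 1 animal.

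Proteins of this family carry armadillo repeats, helical units that bind other proteins. Armcx1 and Armcx3 sit on the outer membrane of mitochondria and help to move mitochondria along axons, together with the Miro and Trak adaptors that link them to kinesin motors. Gprasp1, Gprasp2 and Bhlhb9 belong to the G protein-coupled receptor-associated sorting proteins, which bind the tails of receptors taken into the cell and steer them, in the case of Gprasp1, towards lysosomal breakdown. The family is best known in neurons. It is found in placental mammals, and its autosomal relative is Armc10.

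The members lay between positions 134686519 and 135891081 of chromosome X (GRCm38), a span of 1205 kb, in 2 groups of neighbours. In the first, Armcx4 (chrX:134686519-134696757, plus strand) was followed by Armcx1 (chrX:134717963-134721917, plus), Armcx6 (chrX:134748461-134751417, minus), Armcx3 (chrX:134756595-134761455, plus) and Armcx2 (chrX:134804145-134809221, minus). These 5 genes fitted into 123 kb. After a gap of 934 kb came the second group of 4, in 148 kb, in which Armcx5 (chrX:135742733-135747322) and Gprasp1 (chrX:135742733-135803474) shared a start on the plus strand. Bhlhb9 (chrX:135797594-135891081, plus) was annotated as a long gene that enclosed Gprasp2 (chrX:135839034-135844730, plus). Armcx5 and Gprasp1 shared 456 bp of exon, and Bhlhb9 and Gprasp2 shared 376 bp, so that reads from these stretches cannot be given to either gene of the pair with certainty. Of the 50-base stretches of Armcx3 transcripts, 29.0% also occurred in transcripts of other genes, mainly the pseudogene Gm9299, and of those of Armcx6 14.8% also occurred in Gm16397. Levels of Armcx3 and Armcx6 are uncertain to that extent, while Armcx1, Armcx2 and Armcx4 had no such stretch.

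Promoter windows of 300 bases, from 250 before to 50 after the start, were found for 8 of the 9 members in RefSeq (GRCm38.p6). They are shown because neighbouring members share promoter sequence, within the family and with several Bex and Tceal genes beside it, a sharing known from earlier comparisons of these gene families. Armcx1, Armcx4 and Armcx6 each held 1 paired element near the start, in capitals here, made of TGACG and CACGTGA with 7 or 9 other bases between them. The element was chosen after the windows had been read.
Armcx1 (chrX:134717903-134717961, plus strand): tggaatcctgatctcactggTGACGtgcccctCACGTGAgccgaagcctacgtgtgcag
Armcx4 (chrX:134686482-134686542, plus strand): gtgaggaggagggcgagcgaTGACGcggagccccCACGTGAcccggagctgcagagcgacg
Armcx6 (chrX:134751419-134751477, minus strand): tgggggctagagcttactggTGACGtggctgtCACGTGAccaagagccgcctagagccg
Both spacings, TGACGNNNNNNNCACGTGA and TGACGNNNNNNNNNCACGTGA, were searched on both strands of all promoter windows. They were found in 18 of 32851 windows, or 0.0548%, which belonged to 16 of 27025 genes. Of these 16 genes, 3 were members, 8 were among the 12 Bex and Tceal genes with a window, and 5 were other genes. Among those others, the X-linked gene B230119M05Rik starts 57 bp from Armcx4 in the opposite orientation. Its window may reach over the Armcx4 element, so its match may be the same site counted again. The inner letters CACGTG, which every match contains, were in 7.15% of all windows. The windows of Armcx2, Armcx5, Gprasp1, Gprasp2 and Bhlhb9 did not hold these letters with either spacing.

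The second group had promoter sharing of another kind. Gprasp1 and Armcx5 had 1 window in common, of which the last 100 bases, on the plus strand, are shown.
Gprasp1 and Armcx5 (chrX:135742642-135742741): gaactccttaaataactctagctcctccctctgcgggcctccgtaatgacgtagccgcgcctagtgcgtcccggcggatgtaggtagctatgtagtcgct
Gprasp2 and Bhlhb9 had separate windows, that of Bhlhb9 lying inside the gene as annotated for the counts and not at its start. The 2 windows were near copies of each other over 142 bases, with 97.9% identity, and capitals mark the 3 bases that differed.
Gprasp2 (chrX:135838934-135839075, plus strand): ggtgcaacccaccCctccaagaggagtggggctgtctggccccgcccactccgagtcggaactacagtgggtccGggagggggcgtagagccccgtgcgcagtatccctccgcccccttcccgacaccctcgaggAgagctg
Bhlhb9 (chrX:135885757-135885898, plus strand): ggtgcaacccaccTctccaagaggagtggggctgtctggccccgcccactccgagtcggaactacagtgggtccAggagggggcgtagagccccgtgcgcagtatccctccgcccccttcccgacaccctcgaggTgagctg

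Library sizes lay between 12356231 and 29154395 reads in genes. Values below are the authors' normalized counts, called normalized values here, and each tissue's table was normalized on its own. A count of 0 would allow a normalized value of up to 0.225 in the shallowest library. Xist averaged 3.88 in mutant and 674 in control brain, and mutant Xist was 0.576% of control in brain, 8.66% in fibroblasts, 7.22% in spleen and 32.8% in liver. Neuron markers summed to 8019 to 8091 in mutant and 7959 to 8975 in control brain. Hepatocyte markers summed to at least 80670 in every liver library and stroma markers to at least 19450 in every fibroblast library, while in spleen lymphocyte markers summed to 98.8 to 174 in mutants and 106 to 390 in controls. The spleen library mutant 1 stood apart, since its pancreatic acinar markers summed to 7388, against 12.4 in the other mutant spleen and 0.895 to 956 in the control spleens. In fibroblasts, mutant 2 gave the highest normalized value of the 6 libraries for 26.9% of all genes tested and for 44.0% of X-linked genes. The labels name no batch.

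In brain, Armcx4, Armcx1 and Armcx2, which lie in the first group of neighbours, were higher in Xist mutants by 1.45-fold to 1.69-fold, with every mutant library above every control library. The other 6 members lay within 0.21 of 0 on the log2 scale. No member passed the test across all genes used here, limma with Benjamini-Hochberg adjustment over 16909 genes, which called 0.0237% of the genes in brain. DESeq2, run on whole reads recovered from the normalized values as another test, called these 3 members. It called 0.242% of all genes tested, 0.213% as higher in mutants, and 3.93% of X-linked genes. Both groups had 2 libraries, and more cells that use a gene and more RNA of it per cell cannot be told apart in bulk tissue.

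Armcx4, an armadillo-repeat member whose own role is little studied, read 189 and 177 in the mutant brains, against 110 and 106 in the control brains. The mutant values lay well clear of the control values, and the spread within each pair was small. Mutants averaged 183 ± 8.17 and controls 108 ± 2.82 (SD, n = 2 each). On the log2 scale, with 0.5 added to each value, the difference was 0.76 (SE 0.10, 95% limits 0.53 and 0.99), with an adjusted p of 0.107 in limma and 5.9e-06 in DESeq2. By unadjusted p, Armcx4 ranked 7 of the 16909 genes tested and 2 of the 611 X-linked genes tested.

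Armcx1, the mitochondrial transport protein, read 54.7 and 50.6 in the mutant brains, against 33.2 and 35.1 in the control brains. The lower mutant value was still above the higher control value. The log2 difference was 0.62 (SE 0.12, 95% limits 0.34 and 0.89), with an adjusted p of 0.345 in limma and 0.0415 in DESeq2.

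Armcx2, a relative of Armcx1 and Armcx3, read 238 and 225 in the mutant brains, against 154 and 165 in the control brains. The groups did not overlap here either. The log2 difference was 0.54 (SE 0.10, 95% limits 0.31 and 0.77), with an adjusted p of 0.299 in limma and 0.00991 in DESeq2. The 3 genes ranked 7, 35 and 31 by unadjusted p in limma, in the order Armcx4, Armcx1 and Armcx2, and were the only members with an unadjusted p under 0.05, which 4.07% of all genes tested had. edgeR's quasi-likelihood test on the recovered reads called none of them, with adjusted p-values of 0.115 for Armcx4, 0.31 for Armcx1 and 0.317 for Armcx2. Without brain mutant 1 the adjusted p of Armcx1 and Armcx2 in limma was 0.9998, and without brain control 2 that of Armcx4 was 0.0144.

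The other members of the first group were closer to their controls. Armcx6 read 22.8 and 23.4 in the mutant brains, against 19.9 and 20.1 in the control brains, without overlap, and the log2 difference was 0.20 (SE 0.14). Armcx3, the mitochondrial protein that binds Miro and Trak2, read 12.7 and 11.6 in mutant brain, against 11.0 and 12.0 in control brain. Its groups overlapped, with a log2 difference of 0.08 (SE 0.17, 95% limits -0.32 and 0.47).

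Among the sorting proteins and their neighbours the brain differences were small. Gprasp1, which directs internalized receptors to lysosomes, read 741 and 753 in mutant brain, against 680 and 700 in control brain. Its mutant values were all above its control values, but the log2 difference was 0.12 (SE 0.10, 95% limits -0.12 and 0.35). Armcx5, which shares its start with Gprasp1, read 19.96 and 21.89 in the mutants and 19.01 and 17.15 in the controls, a log2 difference of 0.21 (SE 0.15). Gprasp2, which binds several receptors, read 146 and 149 in mutant brain, against 143 and 151 in control brain, and its log2 difference was 0.00 (SE 0.10, 95% limits -0.23 and 0.23). Bhlhb9 read 35.9 and 43.6 in the mutants and 41.0 and 39.9 in the controls, with a log2 difference of -0.03 (SE 0.14). Both of these genes had overlapping groups. The adjusted p in limma was 1 for each of the 6 members outside Armcx4, Armcx1 and Armcx2.

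**Figure D1:**
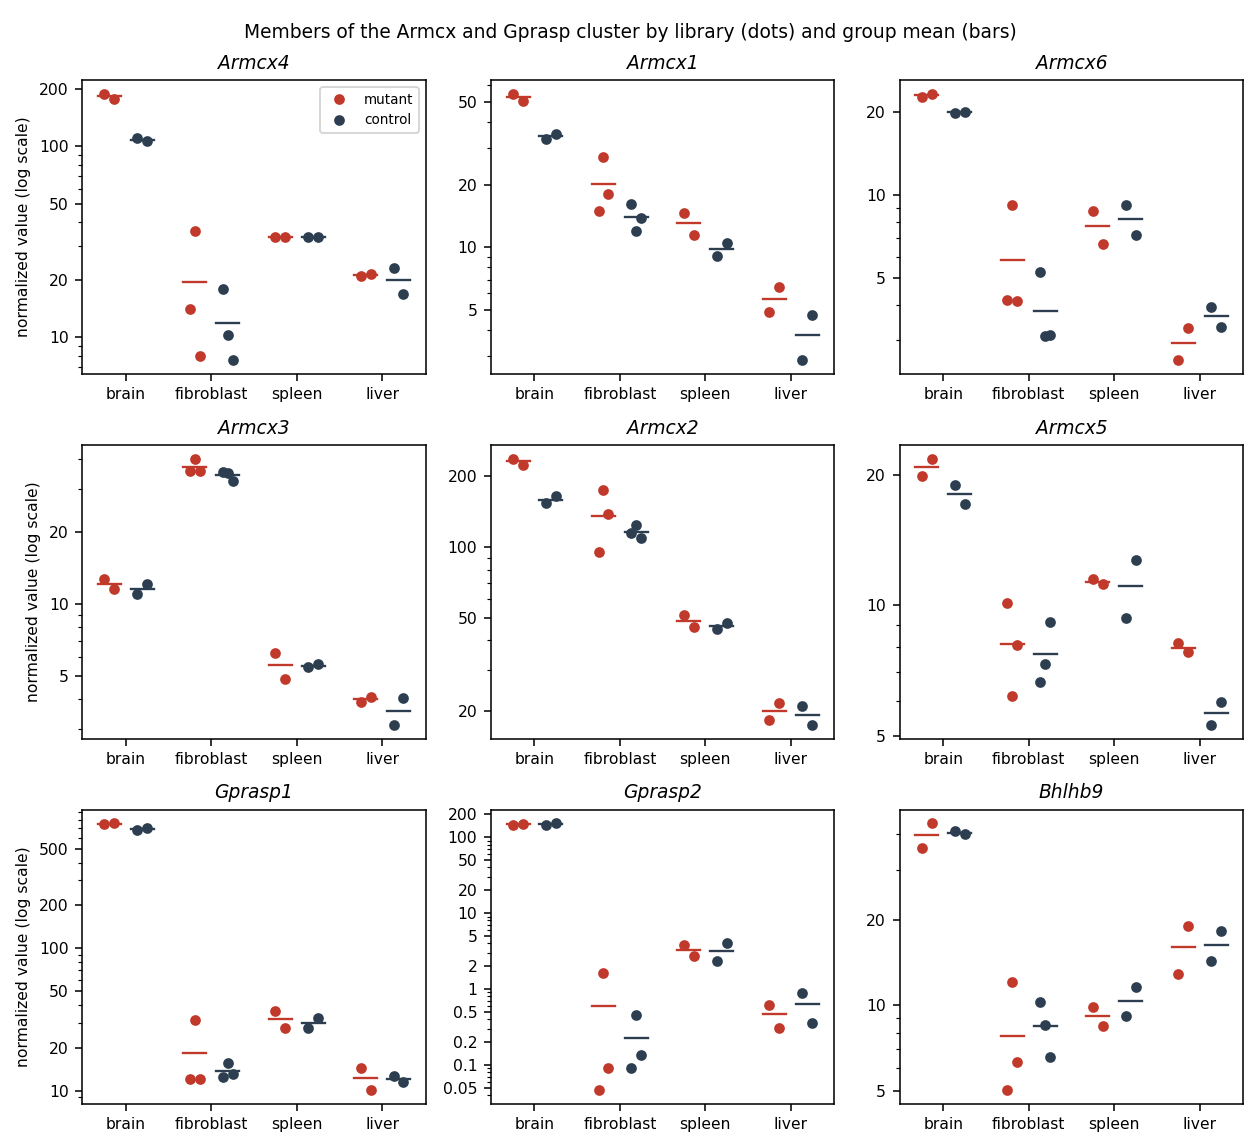
Normalized value (log scale, a separate range for each gene) of each member in every library, by tissue, with mutants left of controls and a bar at each group mean. The mutant brains lie apart from the control brains for Armcx4, Armcx1 and Armcx2, while Gprasp2 and Bhlhb9 overlap, and in fibroblasts 1 mutant library, mutant 2, is highest for 8 of the 9 members.

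Counted over the cluster, 8 of the 9 members had a log2 difference above 0 in brain, as did 74% of X-linked genes and 46.1% of all genes tested. The members' median was 0.20, beside a median of 0.14 over the 611 X-linked genes and -0.01 over all genes tested. In 6 of the 9 members every mutant brain was above every control brain, and in none was it below. The background for this count was 13.8% of all genes tested and 41.7% of X-linked genes. By size, 21 of the 611 X-linked genes had a larger log2 difference than Armcx4, 41 than Armcx1 and 69 than Armcx2, while 450 had a larger one than Gprasp2. Split by position, the 5 members of the first group had a median log2 difference of 0.54 (0.08 to 0.76), against 0.06 (-0.03 to 0.21) for the 4 members of the second group. This split was made with the values known, and no test was run on it.

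The makeup of the family's RNA in brain differed between the groups as well. Reads of all 9 members summed to 1477 and 1459 RPM (reads for every 1000000 reads in genes) in mutant brain, against 1183 and 1259 RPM in control brain. Armcx1, Armcx2 and Armcx4 together made up 33.0% and 31.1% of that sum in the mutants and 24.5% and 24.6% in the controls. Gprasp1 made up 50.8% and 51.8% in the mutants and 56.1% in both controls. The 3 genes were grouped after their values were seen, so these shares describe the libraries only. All 5 choroid plexus markers had a log2 difference above 0 in brain, none without overlap, with sums of 669 to 1026 in mutants and 147 to 795 in controls. Of the 10 glia markers 2 were above 0, with sums of 1003 to 1046 in the mutants and 984 to 1156 in the controls, and 4 of them were lower in every mutant than in every control. Of the 10 neuron markers 3 were above 0 and 3 were lower without overlap. Of the 5 microglia markers 2 were above 0 and 3 were lower without overlap, with sums of 55.4 to 56.0 in mutants and 55.4 to 75.0 in controls. Among these 3, Cx3cr1 and P2ry12 had log2 differences of -0.60 (SE 0.23) and -0.71 (SE 0.26), each with an adjusted p of 1 in limma. None of these lists had a gene at 0 in every brain library. Their part in the members' differences was not tested.

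Fibroblast mutants gave higher means than controls for 7 of the 8 members tested, but the libraries overlapped for nearly all. The log2 difference was above 0 for 60.1% of X-linked genes and 48.9% of all genes tested. Armcx4 read 14.1, 36.2 and 8.03 in mutant fibroblasts, against 17.9, 10.3 and 7.57 in control fibroblasts, and the log2 difference was 0.50 (SE 0.57). Mutant 2 was the highest of the 6 libraries, and the other mutant values lay within the control range. Armcx1 read 14.9, 27.1 and 18.1 in the mutants and 16.2, 11.9 and 13.9 in the controls, with a log2 difference of 0.47 (SE 0.25). Armcx2 read 95.3, 174 and 139 in the mutants and 115, 124 and 110 in the controls, with a log2 difference of 0.19 (SE 0.22). Gprasp1 read 12.1, 31.4 and 12.0 in the mutants and 12.5, 15.5 and 13.2 in the controls, so that mutant 2 alone was above the controls.

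Mutant 2 was the highest of the 6 fibroblast libraries for 8 of the 9 members. Without it the log2 difference was -0.07 for Armcx4, -0.01 for Armcx2 and -0.17 for Gprasp1, and it stayed above 0 for Armcx1, at 0.23. The median over the members was 0.23 with all libraries and 0.02 without mutant 2. Over X-linked genes it was 0.05 and 0.02, and over all genes tested -0.003 and 0.009, in the same order. All 6 stroma markers had a log2 difference above 0 in fibroblasts, with sums of 22270 to 35390 in mutants (24820 in mutant 2) and 19450 to 21600 in controls, and neuron markers summed to 81.0 in mutant 2 and 83.3 to 165 in controls. Mutant 2 had the highest sum of the 6 libraries for glia markers, at 443.5, against 180 to 381 in controls, and for Schwann cell and peripheral nerve markers, at 6.88, against 3.07 to 6.83 in controls. Olig1 and Olig2, defining genes of the glia list, were at 0 in every fibroblast library. Their part in the members' values was not tested. Armcx3 was the only member whose 3 mutant fibroblast values, 35.7, 40.4 and 35.8, were all above the control values of 35.6, 35.1 and 32.7, with a background of 2.07% of all genes tested. The gap was narrow, and its log2 difference was 0.11 (SE 0.11). Limma called no gene in fibroblasts (0% of 13077, with 0.971% at an unadjusted p under 0.05, none of them members), edgeR called no gene, and DESeq2 called 0.0229% of genes and no member.

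In newborn spleen the members were nearly level between mutants and controls, and Armcx1 differed most. Armcx1 read 14.6 and 11.5 in mutant spleen, against 9.10 and 10.5 in control spleen, without overlap, and the log2 difference was 0.39 (SE 0.31). Without spleen mutant 1, the library with pancreatic markers, it was 0.22. Armcx4, which differed in brain, read 33.7 and 33.6 in mutant spleen, against 33.6 and 33.3 in control spleen, a log2 difference of 0.01 (SE 0.26, 95% limits -0.61 and 0.63). Armcx2 read 51.4 and 45.7 in the mutants and 44.7 and 47.6 in the controls. Over the 9 members the median log2 difference was 0.04, beside 0.03 over X-linked genes and -0.07 over all genes. Only Armcx1, 1 of the 9 members, had every mutant above every control, a share not above the background of 18.3% of all genes tested. Limma called no gene in spleen (0% of 16578, with 6.27% at an unadjusted p under 0.05, none of them members), edgeR called no gene, and DESeq2 called 1.1% of genes and no member. All 6 stroma markers and all 5 neuron markers tested were above 0 in spleen. Stroma markers summed to 2854 to 4638 in mutant and 1885 to 2331 in control spleen, and neuron markers to 28.7 to 37.5 in mutant and 13.0 to 15.7 in control spleen. All 5 endothelial markers were above 0, 4 of them without overlap, with sums of 818 to 1098 in mutants and 530 to 736 in controls. Of 7 glia markers tested 5 were above 0, 2 of them higher and 2 other genes lower without overlap, with sums of 487 to 561 in mutants and 171 to 178 in controls, most of which was Pdgfra. None of the 6 erythroid markers was above 0 and 3 were lower without overlap, with sums of 5878 to 8667 in mutants and 8188 to 17790 in controls. Their part in the members' values was not tested.

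In newborn liver, where the summed level of the family was lowest, Armcx1 and Armcx5 were higher in both mutants than in both controls and Armcx6 was lower. Armcx1 read 4.90 and 6.42 in mutant liver, against 2.86 and 4.74 in control liver, with a log2 difference of 0.54 (SE 0.32), which was 0.22 without liver control 1 and 0.86 without liver control 2. Armcx5 read 8.18 and 7.79 in the mutants and 5.28 and 5.99 in the controls, with a log2 difference of 0.47 (SE 0.22). Armcx6 read 2.52 and 3.29 in the mutants and 3.94 and 3.34 in the controls, a gap of hardly any width, with a log2 difference of -0.29 (SE 0.27), which was -0.12 without liver mutant 1 and -0.45 without liver mutant 2. Thus 2 of the 8 members tested had every mutant above every control and 1 had every mutant below. Both shares were near the background, 23.5% and 13.1% of all genes tested. Armcx4 read 20.9 and 21.6 in mutant liver, inside the control values of 23.1 and 16.8. The median over the 8 members tested was 0.08, beside 0.10 over X-linked genes and 0.05 over all genes. Limma called no gene in liver (0% of 15075, with 6.67% at an unadjusted p under 0.05, none of them members), edgeR called no gene, and DESeq2 called 1.4% of genes and no member. All 6 stroma markers were above 0 in liver, with sums of 568 to 644 in mutants and 397 to 507 in controls. Of the 5 endothelial markers 4 were above 0, 3 of them without overlap, with sums of 379.5 to 384 in mutants and 261 to 360 in controls. The part of both lists in the members' values was not tested.

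**Figure D2:**
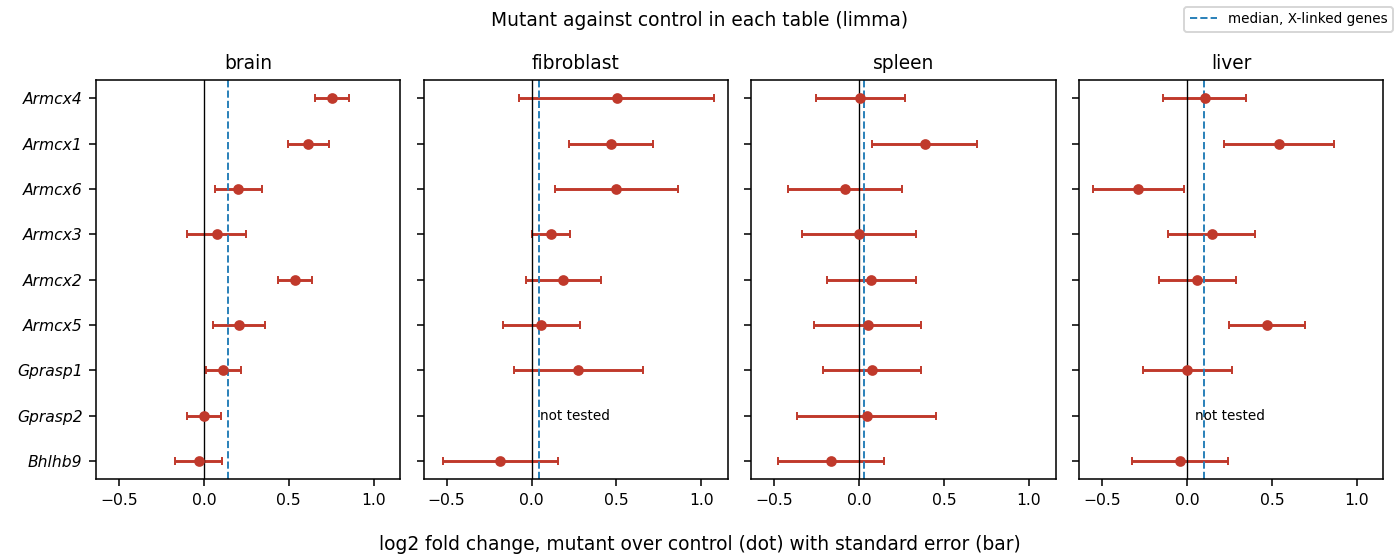
Log2 fold change of each member, mutant over control, by tissue (dots, with bars of 1 standard error from limma), and the median of all X-linked genes tested in that tissue (dashed line). Armcx4, Armcx1 and Armcx2 lie between 0.54 and 0.76 in brain, and Gprasp2 was below the level tested in fibroblasts and liver.

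The mutant differences were then set against each other across tissues in 1 limma fit over the 18 libraries, restricted to the 11439 genes with a mean normalized value of at least 1 in every table. Gprasp2 did not reach this level. For the mean difference over the 4 tissues the fit called 0.306% of genes and none of the 8 members. Of these members Armcx1 had an unadjusted p under 0.05 in limma, as did 8.89% of all genes tested. Armcx1 had the largest mean log2 difference of the members, at 0.50 (SE 0.13, 95% limits 0.21 and 0.79, adjusted p in limma 0.188), and was higher in mutants on average in each of the 4 tissues. Armcx2 followed in p with 0.21 (SE 0.10), and Bhlhb9 was the only member below 0, at -0.11 (SE 0.16).

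Whether a member's difference was larger in brain than in another tissue was tested in the same fit. For Armcx4 the brain difference exceeded that in spleen by 0.75 (SE 0.70), that in liver by 0.65 (SE 0.70) and that in fibroblasts by 0.26 (SE 0.64) on the log2 scale. The 95% limits ran from -0.75 to 2.25 for the comparison with spleen. For Armcx2 the same 3 excesses were 0.47 (SE 0.31), 0.48 (SE 0.31) and 0.35 (SE 0.28), and for Armcx1 0.23 (SE 0.40), 0.07 (SE 0.40) and 0.15 (SE 0.36). No member was called in any of these comparisons or had an unadjusted p under 0.05, and limma called 0%, 0.0437% and 0.0175% of genes for spleen, liver and fibroblasts. Brain is the tissue with all 3 genes higher without overlap, but an excess over the other tissues was not shown. This fit shares 1 spread per gene over all tissues, and the fibroblast libraries of Armcx4 spread widely. Mutant Xist also differed between tissues, from 0.576% of control in brain to 32.8% in liver, and its part in these comparisons was not tested.

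Genes around the cluster did not share 1 direction in brain. Within 1 Mb on either side of the outermost members lay 120 annotated genes, of which 34 besides the members reached the level tested in brain. Their median log2 difference was 0.02, with 19 of the 34 above 0, 9 with every mutant above every control, 3 with every mutant below, and none called by limma. The genes with the smallest p among them were all higher in mutants and all low in level. Bex4 read 11.1 ± 6.42 in mutant and 4.76 ± 0.607 in control brain (SD, n = 2 each). B230119M05Rik, the gene in opposite orientation to Armcx4, read 1.46 ± 0.305 in mutant and 0.682 ± 0.116 in control brain, a log2 difference of 0.73 (SE 0.29). Gm15016, Cenpi, which encodes a centromere protein, and Tceal7 had log2 differences of 0.76, 0.65 and 0.56, with standard errors of 0.30, 0.29 and 0.29.

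**Figure D3:**
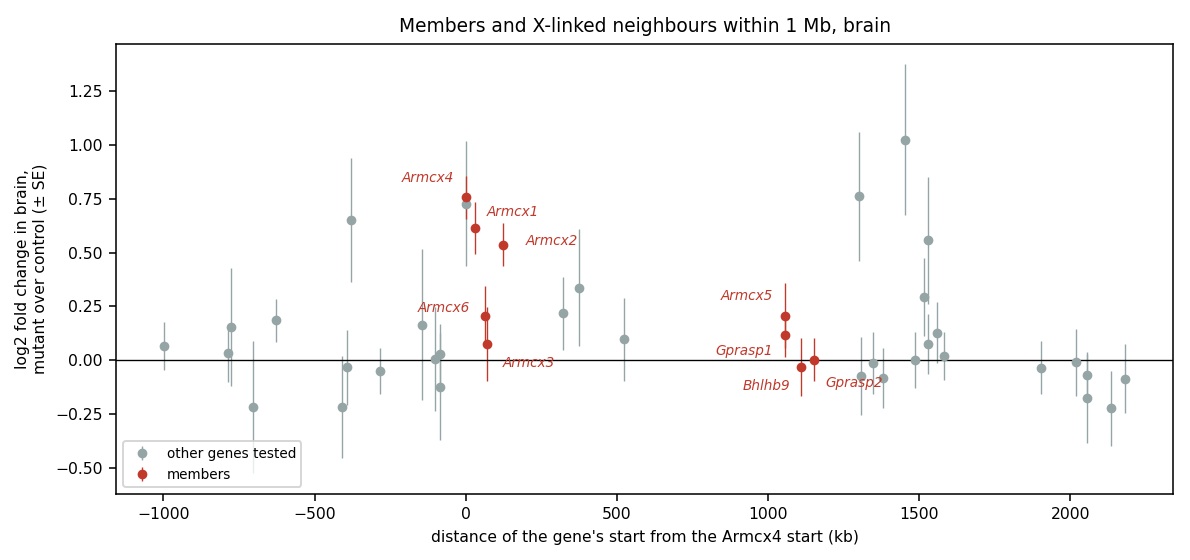
Log2 fold change in brain, mutant over control, with its standard error, against the distance of each gene's annotated start from that of Armcx4 in kb, for the 9 members and the 34 other X-linked genes tested within 1 Mb of the cluster. Armcx4, Armcx1 and Armcx2 stand together at the left end of the cluster between 0.54 and 0.76, with Armcx6 and Armcx3 between them at 0.20 and 0.08.

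Genes that work with the members did not pass the test in any tissue. Of the 13 mitochondrial transport genes, 3 had a log2 difference above 0 in brain, with a median of -0.01, and none was called. The smallest p belonged to Disc1, a scaffold protein that binds the Trak and Miro complex, at 7.56 ± 0.729 in mutant and 5.16 ± 1.499 in control brain. Mfn1, which fuses outer mitochondrial membranes, read 76.7 ± 2.31 in the mutants and 65.6 ± 0.0568 in the controls. Kif5b, a kinesin heavy chain, read 160 ± 1.98 in the mutants and 181 ± 6.42 in the controls, and Snph, which anchors axonal mitochondria, read 60.7 ± 6.19 in the mutants and 68.2 ± 0.681 in the controls (SD, n = 2 each). The Miro gene Rhot1 was level, at 68.2 in both groups.

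Of 15 receptor sorting genes tested in brain, 6 were above 0, with a median of -0.02, and none was called. Adrb1, the beta-1 adrenergic receptor, read 6.89 ± 0.482 in mutant and 9.74 ± 0.106 in control brain, with a log2 difference of -0.47 (SE 0.19) and an adjusted p of 1 in limma. Drd2, the dopamine receptor that Gprasp1 binds, read 10.9 ± 1.98 in the mutants and 13.8 ± 1.72 in the controls. Calcr and Oprd1, the calcitonin and delta opioid receptors, had log2 differences of 0.30 (SE 0.21) and -0.36 (SE 0.25). Of 11 Bex and Tceal genes tested in brain, X-linked neighbours of the cluster, 7 were above 0, with a median of 0.08, and none was called. The promoter element was in the windows of 8 of the 11, and not in those of Bex2, Tceal7 and Tceal9. After Bex4 and Tceal7, the smallest p were those of Tceal5 and Tceal9, with log2 differences of 0.29 (SE 0.18) and 0.13 (SE 0.14). In the other tissues the same lists were not called either. The mitochondrial transport genes above 0 were 3 of 12 in fibroblasts, 5 of 12 in spleen and 7 of 11 in liver, the receptor sorting genes 5 of 10, 7 of 12 and 8 of 11, and the Bex and Tceal genes 3 of 5, 5 of 6 and 5 of 8, in the same order of tissues. Armc10, the autosomal relative, read 39.2 ± 1.41 in mutant and 42.4 ± 6.44 in control brain, a log2 difference of -0.10 (SE 0.14).

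The levels of the members between tissues were read from the 9 control libraries. Levels are given as RPKM, the RPM of recovered reads divided by the kb of exon, with SD over libraries and no test, since the tables were normalized separately. In control brain the order was Gprasp1 at 84.4 ± 3.75, Armcx2 at 34.96 ± 2.55, Gprasp2 at 32.3 ± 2.04, Armcx4 at 13.4 ± 0.0290, Armcx1 at 10.5 ± 0.666, Bhlhb9 at 8.37 ± 0.0461, Armcx6 at 7.99 ± 0.227, Armcx5 at 4.23 ± 0.206 and Armcx3 at 3.23 ± 0.289 RPKM (n = 2). Armcx2 and Gprasp2 were close, with library ranges of 33.2 to 36.8 and 30.8 to 33.7 RPKM that overlapped. Gprasp1 held 56.1% of the reads of the whole family in brain.

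The order was different outside brain. Armcx2 led in control fibroblasts, at 25.7 ± 1.69 RPKM (n = 3), in spleen at 9.94 ± 1.58 RPKM and in liver at 4.25 ± 0.504 RPKM (n = 2 each). Gprasp2 came last in each of these 3 tissues, at 0.0491 ± 0.0425 RPKM in fibroblasts, 0.701 ± 0.338 in spleen and 0.138 ± 0.0810 in liver. In fibroblasts its control libraries held 2, 9 and 3 reads, so the value there is close to the limit of the depth, and its fibroblast and liver values overlapped.

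Of the 9 members, 8 had their highest control level in brain, apart from every other tissue's libraries. The exception was Armcx3, at 9.77 ± 0.648 RPKM in fibroblasts, 3.23 ± 0.289 in brain, 1.52 ± 0.206 in spleen and 1.02 ± 0.203 in liver. The share of all genes that are highest in brain in this way is not given here. The count of 8 therefore does not set the family apart. Brain over the next tissue was 46.0-fold for Gprasp2, 23.3-fold for Gprasp1, 3.30-fold for Armcx4, 2.52-fold for Armcx6, 2.45-fold for Bhlhb9, 2.41-fold for Armcx1, 1.65-fold for Armcx5 and 1.36-fold for Armcx2. The sorting proteins Gprasp1 and Gprasp2 thus stood far above the rest in how much brain exceeded other tissues. Brain over the lowest tissue was 56.4-fold for Gprasp1, against liver, and no such fold is given for Gprasp2, whose lowest values rest on few reads. The control spleens behind the value for Gprasp2 read 0.462 and 0.940 RPKM.

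Several neighbours in these orders overlapped. For Armcx4 the order was brain, spleen (4.07 ± 0.444 RPKM), liver (2.51 ± 0.532) and fibroblasts (1.51 ± 0.721), and the last 2 overlapped. For Armcx1 it was brain, fibroblasts (4.36 ± 0.767), spleen (2.97 ± 0.638) and liver (1.19 ± 0.430), with no overlap between neighbours. For Armcx5 it was brain, spleen (2.57 ± 0.841), fibroblasts (1.82 ± 0.270) and liver (1.34 ± 0.136), with spleen and fibroblasts overlapping. For Armcx6 it was brain, spleen (3.18 ± 0.206), fibroblasts (1.55 ± 0.550) and liver (1.47 ± 0.155), and the last 2 overlapped. Gprasp1 followed brain with spleen (3.62 ± 0.811), fibroblasts (1.69 ± 0.175) and liver (1.496 ± 0.0823), all apart. Bhlhb9 had liver second (3.41 ± 0.622), ahead of spleen (2.12 ± 0.587) and fibroblasts (1.77 ± 0.428), which overlapped.

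The genes that share promoter sequence did not share these levels. Gprasp1 and Armcx5, with 1 promoter window in common, stood at 84.4 and 4.23 RPKM in control brain, with brain over liver at 56.4-fold for Gprasp1 and 3.16-fold for Armcx5. Gprasp1 and Armcx5 also share 456 bp of exon, and reads from other starts of either gene were not told apart. Their levels can therefore not be tied to the common window. Gprasp2 and Bhlhb9, with near copies of a promoter window, stood at 32.3 and 8.37 RPKM in control brain and at 0.0491 and 1.77 RPKM in control fibroblasts, so their order was turned round between the 2 tissues. The Bhlhb9 window (chrX:135885601-135885900) lies inside the counted gene, which starts at 135797594. Its level may therefore include transcripts from another start, and this pair cannot show what the shared sequence does. Of the 3 members with the TGACG and CACGTGA element, Armcx1 and Armcx4 differed in brain between mutants and controls by 0.62 and 0.76 on the log2 scale and Armcx6 by 0.20. Armcx2, without it in its window, differed by 0.54.

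**Figure D4:**
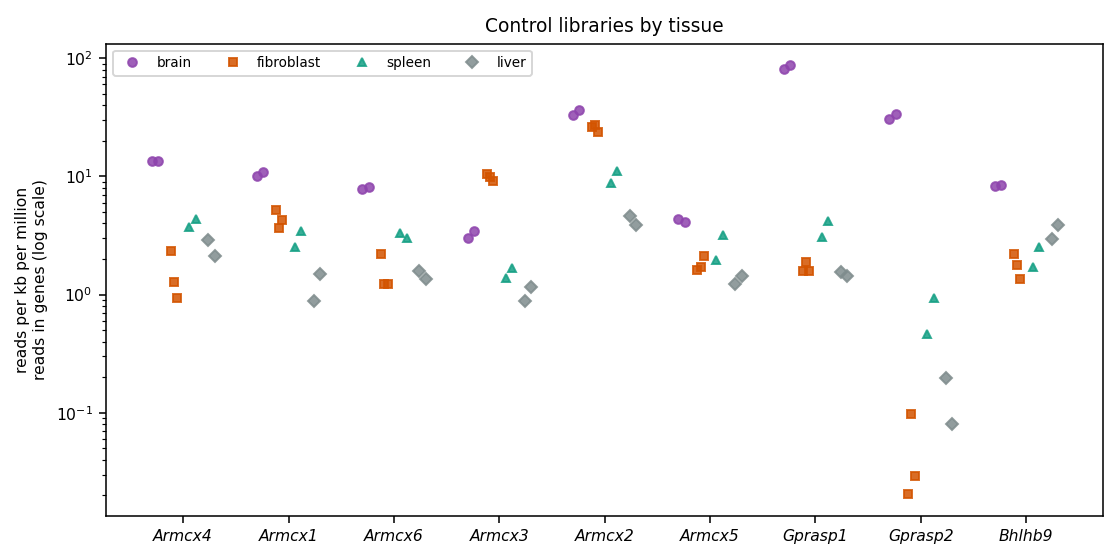
Level of each member in the control libraries, in RPKM (log scale), for brain, fibroblasts, spleen and liver (1 point per library). All members but Armcx3 are highest in brain, where Gprasp1 lies near 84.4, and Gprasp2 spans the widest range, down to 0.0491 on average in fibroblasts.

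Summed over the 9 members, control libraries averaged 1221 ± 54.1 RPM in brain (n = 2), 211 ± 17.1 in fibroblasts (n = 3), 154 ± 27.5 in spleen and 85.3 ± 2.29 in liver (n = 2 each). The genes most like this sum over the 9 control libraries, among 13615 genes compared by Pearson's r of log2 RPM with 0.5 added, were Magi2 (0.996), B630019K06Rik (0.996), Grin2d (0.995), Zfp60 (0.994) and Wdr47 (0.994). Magi2 encodes a synaptic scaffold and Grin2d an NMDA receptor subunit, and B630019K06Rik is X-linked. The 9 points come from 4 tissues, so these values describe the contrast of brain with the other tissues and carry no p.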

How the data were processed

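Total RNA depleted of ribosomal RNA was sequenced in 18 libraries with 50-base reads. The deposited values are a signal, counts per gene that the authors scaled in 4 separate tables. HTSeq 0.6.1 and edgeR, with GRCm38 or mm10, are named in the submitters' processing notes. The sources used here do not state the aligner, the annotation release or the strand setting. Within each library 100% of values above 0 were whole multiples of the value of 1 read (tolerance 0.05), so whole reads could be recovered. Each read was worth 0.0343 to 0.0751, and 3 reads were taken as the limit that a count of 0 allows, which covers counting error only. Rows not matched to the GENCODE M21 annotation, 849 of 46078, held at most 0.179% of reads.

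The main test was limma 3.58.1 (R 4.3.3, trend, two-sided) on log2 of the normalized value plus 0.5, mutant against control within each table. Genes needed a table mean of at least 1, so Gprasp2 was not tested in fibroblasts and liver. P-values were adjusted by Benjamini-Hochberg over all genes, with calls under 0.05. The fit over 18 libraries used 8 group means. A fold change on this scale understates the change of low genes. The count tests on recovered reads, DESeq2 1.42.0 and edgeR 4.0.16, called 41 and 4 genes in brain. The limma, DESeq2 and edgeR fits within a table and the fit over 18 libraries were tested on simulated data. The changes planted there were larger than those of the members, and the other steps were not simulated. Other alternatives were pseudocounts of 0.1 and 2, no filter, a mean of at least 5, TMM scaling, array weights, a replicate block, 1 fit over all tissues and leaving out each library.

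The members and gene lists were chosen with earlier results of these data known. Named were all 9 members, Armc10, up to 4 genes of each partner list and 5 neighbours with the smallest limma p in brain, and the 5 genes most like the summed members among those with a mean of at least 5 RPM in the controls. Members split by position and the promoter element were chosen after values or windows were seen. RPKM used the exon union of each gene. Promoter sequences came from RefSeq (GRCm38.p6). Ngfrap1 and Wbp5, older names, matched no row. Replicates are separate samples by the labels, and p-values rest in part on the spread between them. Limma draws each gene's spread towards that of genes of like level. A standard error can therefore exceed what a gene's own libraries show, as for Armcx4 in spleen.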

Additional observations from a re-analysis of the deposited data

How the results depend on the processing

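The number of members called in brain by limma was 0 of 9. It was 1 without the filter on low values (Armcx4, adjusted p 0.0329) and 3 by DESeq2, and between 0 and 1 when a library was left out. Over all genes tested in brain the calls were 4 in limma, 13 without the filter and 41 by DESeq2. The members' median log2 difference ran from 0.14 to 0.22 in brain and from 0.032 to 0.17 in liver when a library was left out, and was 0.00108 in liver by DESeq2. The cause was not tested.

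Left-out libraries turned the sign of several members, none of which had passed the test. In fibroblasts the log2 difference ran from -0.012 to 0.42 for Armcx2, -0.073 to 0.98 for Armcx4, -0.10 to 0.23 for Armcx5, -0.17 to 0.50 for Gprasp1 and -0.53 to 0.064 for Bhlhb9. In spleen it ran from -0.013 to 0.16 for Armcx2, -0.16 to 0.16 for Armcx3, -5.3e-05 to 0.013 for Armcx4, -0.16 to 0.26 for Armcx5, -0.27 to 0.11 for Armcx6, -0.12 to 0.28 for Gprasp1 and -0.30 to 0.38 for Gprasp2. In liver it ran from -0.0698 to 0.19 for Armcx2, -0.022 to 0.31 for Armcx3, -0.12 to 0.33 for Armcx4, -0.25 to 0.26 for Gprasp1 and -0.31 to 0.23 for Bhlhb9. In brain it ran from -0.039 to 0.041 for Gprasp2 and -0.17 to 0.11 for Bhlhb9, while Armcx4 stayed between 0.71 and 0.80, Armcx1 between 0.56 and 0.67 and Armcx2 between 0.49 and 0.59. The mean over tissues ran from -0.00499 to 0.14 for Armcx6. The excess of brain over fibroblasts ran from -0.040 to 0.38 for Armcx1 and -0.22 to 0.83 for Armcx4, and that over liver from -0.25 to 0.39 for Armcx1. Where a left-out library leaves 1 sample in a group, that sample is assumed to vary like the others. Of the other settings, a pseudocount of 2, DESeq2 and edgeR turned Armcx3 in spleen to 1.58e-05, 0.056 and 0.0059, and DESeq2 turned Armcx2 and Gprasp1 in liver to -0.011 and -0.041. The causes were not tested.

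With the replicate number as a block, limma called 0 genes in fibroblasts, 356 in spleen, 60 in liver and 4 in brain, and 0 members in each. Deviations of same-numbered fibroblasts correlated at -0.08, 0.43 and 0.02, and those of spleen and brain at -0.03 and 0.08, which does not show pairing. Same-numbered livers correlated at 0.585 and differently numbered livers at -0.585. With 2 libraries a group, as in every organ here, the second value is the first with its sign turned. The liver value is thus 1 comparison, which cannot by itself show pairing. No source says what the numbers mark, so same-numbered samples were not treated as pairs in any tissue. No sample was crossed. Depth limits Gprasp2, which had 1 to 32 reads a library in fibroblasts, 34 to 68 in spleen and 9 to 14 in liver.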
